A study of Mus musculus with 9 samples.

Results

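Tuft cells are rare chemosensory cells of the gut lining, and 10 genes that mark them are described here in mouse colon. The members were chosen by name: Dclk1, Pou2f3, Trpm5, Il25, Alox5, Alox5ap, Hpgds, Gnat3, Sh2d6 and Avil. All 10 had a probe on the array, and together they had 14 of the 26423 probes measured, or 10 of 17742 named genes. Dclk1 had 3 probes, Trpm5 and Hpgds had 2 each, and a gene with several probes is led below by its brightest one over all arrays.

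Colon RNA of female BALB/c mice was measured on 9 arrays, 3 in each of 3 groups. Vanillin mice were injected intraperitoneally on day 1 with 12.5 mg/kg of azoxymethane (AOM), a colon carcinogen. Dextran sodium sulfate (DSS), which injures the colon lining, was given at 2.5% for 5 days starting on day 8 and followed by 16 days of plain water; 3 additional cycles came after. These mice also took 100 mg/kg of vanillin, the flavour compound of vanilla, by mouth on 91 consecutive days. Sham mice had the same AOM and DSS course without vanillin, and Mock mice were untreated. Whether each array stands for its own mouse is not in the labels, so p-values describe array-to-array spread only, and that spread could be technical. Neither the mice's age, nor tumour content, nor the part of the colon taken is given in the labels.

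A tuft cell senses luminal molecules through a taste-type cascade, in which receptors act on a G protein that includes gustducin (Gnat3), and calcium release then opens the cation channel Trpm5. Pou2f3 is the transcription factor without which mice make no tuft cells, and Il25 is the cytokine by which gut tuft cells start a type 2 immune response. Tuft cells also make leukotrienes, for which Alox5 and its helper Alox5ap are needed, and prostaglandin D2, the product of Hpgds. Dclk1 is a kinase widely used to mark mouse tuft cells, Avil codes for the actin-binding protein advillin, and Sh2d6 codes for an SH2-domain protein. Several of these genes are also active elsewhere: Pou2f3 in keratinocytes, Alox5, Alox5ap and Hpgds in leukocytes including mast cells, and Dclk1 and Avil in neurons. In bulk tissue, fewer cells of a type and less RNA per cell cannot be told apart.

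The start regions of 4 members are printed to show which of them carry the octamer ATGCAAAT, the sequence that POU factors such as Pou2f3 are known to bind. Each runs 5' to 3' on the gene's strand from 250 bases before to 50 bases after the start site, from RefSeq, build GRCm38.p6, with matches to the octamer or to its first 7 letters, ATGCAAA, in capitals on either strand. Hpgds lies at chr6:65144681-65144980 (minus strand), Avil at chr10:127000459-127000758 (plus strand), Trpm5 at chr7:143094593-143094892 (minus strand) and Alox5 at chr6:116461129-116461428 (minus strand).
Hpgds: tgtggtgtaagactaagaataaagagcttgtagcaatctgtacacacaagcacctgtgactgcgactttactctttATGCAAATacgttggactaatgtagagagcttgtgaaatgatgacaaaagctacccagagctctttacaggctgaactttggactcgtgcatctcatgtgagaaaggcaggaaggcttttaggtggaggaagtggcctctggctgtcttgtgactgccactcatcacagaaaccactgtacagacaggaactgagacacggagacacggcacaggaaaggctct
Avil: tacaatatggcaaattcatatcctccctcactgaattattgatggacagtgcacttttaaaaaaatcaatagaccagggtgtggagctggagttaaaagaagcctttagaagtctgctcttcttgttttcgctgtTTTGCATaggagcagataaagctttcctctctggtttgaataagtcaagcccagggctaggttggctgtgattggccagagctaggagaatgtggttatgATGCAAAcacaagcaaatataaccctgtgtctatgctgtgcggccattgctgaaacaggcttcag
Trpm5: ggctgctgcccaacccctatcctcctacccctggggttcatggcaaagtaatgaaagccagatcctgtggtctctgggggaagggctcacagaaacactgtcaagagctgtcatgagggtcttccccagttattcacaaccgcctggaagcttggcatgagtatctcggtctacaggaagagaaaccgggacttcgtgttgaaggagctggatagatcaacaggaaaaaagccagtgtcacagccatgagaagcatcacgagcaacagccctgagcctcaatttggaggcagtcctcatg
Alox5: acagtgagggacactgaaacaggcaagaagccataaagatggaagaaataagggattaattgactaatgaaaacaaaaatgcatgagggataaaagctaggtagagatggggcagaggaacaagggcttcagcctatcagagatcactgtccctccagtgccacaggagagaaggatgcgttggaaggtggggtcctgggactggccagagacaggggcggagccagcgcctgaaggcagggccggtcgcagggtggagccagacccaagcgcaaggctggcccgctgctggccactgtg

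The table held 8 such regions for 7 of the 10 members, and none is shown for Pou2f3, Il25 and Alox5ap. The whole octamer was in 1 of the 8, that of Hpgds, where it began at position -174 from the start site, and in 1.74% of all 32851 regions of this length. The 7-letter core, which every octamer also contains, was in 2 of the 8 and in 4.63% of all regions. Avil held it at -115 on the opposite strand and at -15 on its own strand. Trpm5, Gnat3, Sh2d6, Alox5 and both Dclk1 regions held neither. All 11 other motifs searched, on both strands, are given here. The letters GAGGAA were in 5 of the 8 regions (28.3% of all regions), and the longer GAGGAAGT, which contains them, in 1, that of Hpgds (3.2%). GGGCGG was in 1 (35.7%), TGANTCA in 1 (7.81%), a Gfi1b motif in 1, that of Sh2d6 (2.82%), and ATTTGCA in 1, where it overlaps the octamer of Hpgds (4.02%). The letters TATAAA (13.6%), CAGCTG (16.3%), and TTGCGCAA (0.183%), an NF-kB motif (0.155%) and a p53 motif (0.00304%) were in 0 of the 8. These matches describe letters in these windows.

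The 10 genes did not move as 1 group in any of the 3 comparisons. In Vanillin minus Sham, 4 of 10 rose (Pou2f3, Alox5, Alox5ap and Dclk1), 4 fell (Avil, Hpgds, Trpm5 and Gnat3), and Il25 and Sh2d6 were not called, where 15.7% of all probes rose and 32.2% fell. A probe is called at an adjusted p under 0.05, from limma's moderated test with Benjamini-Hochberg adjustment over all 26423 probes. In Vanillin minus Mock, 5 rose (Alox5ap, Alox5, Sh2d6, Dclk1 and Trpm5), 3 fell (Avil, Gnat3 and Hpgds) and 2 were not called, where 24.5% of all probes rose and 26.2% fell. In Sham minus Mock, 3 rose (Alox5ap, Sh2d6 and Trpm5), 4 fell (Pou2f3, Alox5, Il25 and Gnat3) and 3 were not called, where 36.5% of all probes rose and 23.2% fell. By brightest probe, the share of members called was 8 of 10, 8 of 10 and 7 of 10, against a background in which many probes were called in both directions. These shares of all probes are also the background for the counts of each marker list below. Over all 14 member probes, 4 rose, 5 fell and 5 were not called in Vanillin minus Sham. The same counts were 5, 3 and 6 in Vanillin minus Mock and 5, 4 and 5 in Sham minus Mock. Those are the counts most like the shares of all probes. The median change of the 10 was 0.06, 0.04 and -0.12 on the log2 scale in these comparisons, and that of all probes -0.09, 0.00 and 0.10. The comparisons share arrays, so a gene's changes in them are not independent of each other.

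**Figure D1:**
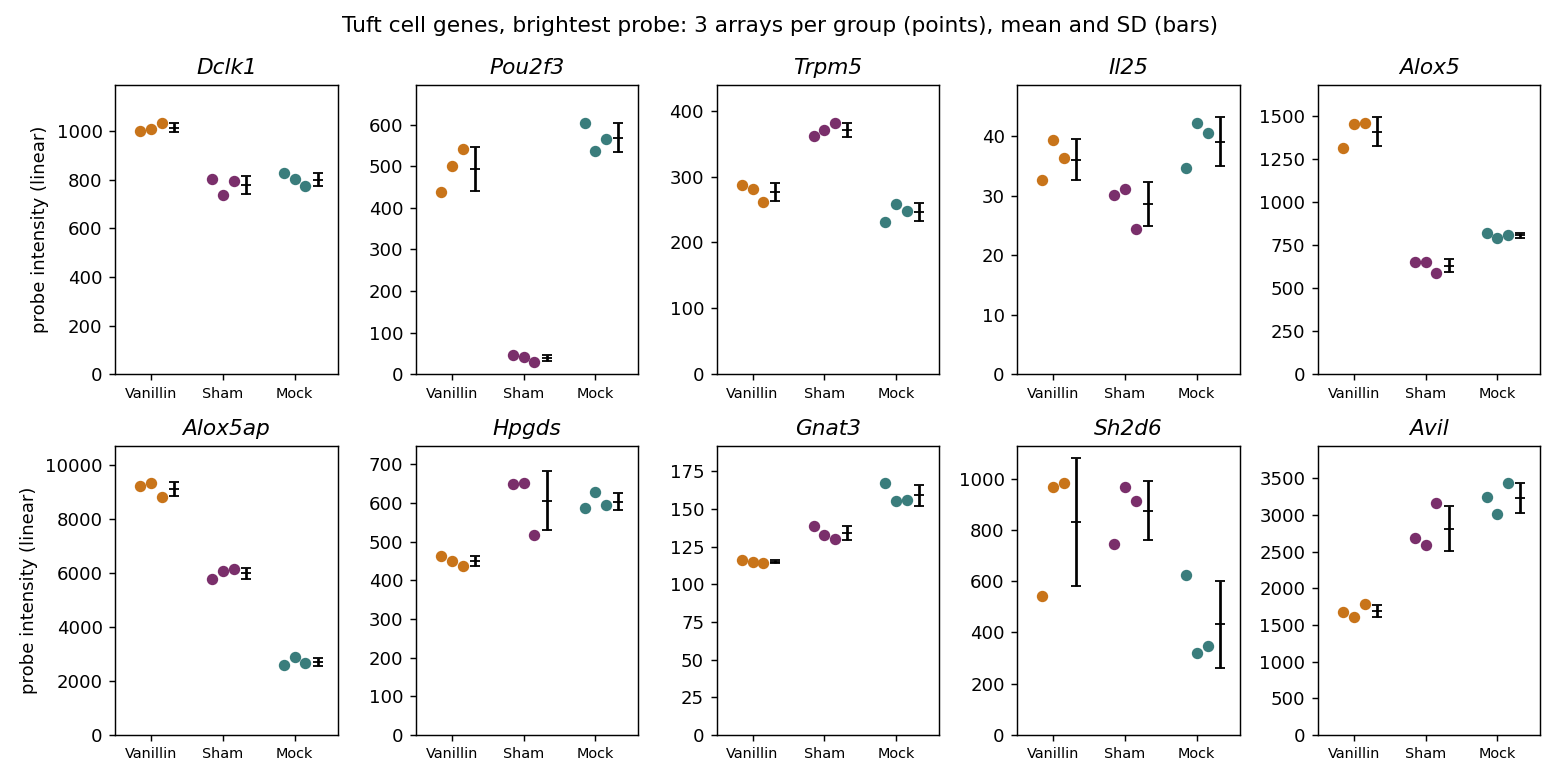
Probe intensity (linear scale, from 0) of the brightest probe of each of the 10 genes on every array, with Vanillin, Sham and Mock from left to right. Points are arrays and bars are the mean with SD of 3 arrays; Pou2f3 is near 0 in Sham alone, with a mean of 38.9, while Alox5ap is highest in Vanillin at 9118.

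Pou2f3, the regulator of the tuft cell lineage, had the largest change of the 10 in the comparisons that include Sham. Its probe read an intensity of 437, 501 and 541 on the Vanillin arrays, against 46.0, 40.6 and 30.1 on the Sham arrays and 605, 536 and 566 on the Mock arrays. Every Sham array lay far below every array of the other groups, whereas Vanillin and Mock overlapped. The group means were 493 ± 52.8 in Vanillin, 38.9 ± 8.07 in Sham and 569 ± 34.6 in Mock (SD, n = 3 each).

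The log2 change of Pou2f3 was 3.22 in Vanillin minus Sham (SE 0.12, limma adjusted p = 4.7e-08) and -3.42 in Sham minus Mock (SE 0.12, adjusted p = 1.1e-08). Vanillin minus Mock gave -0.21 (SE 0.12, adjusted p = 0.18) and was not called. The Sham level is dim, so the size of the change depends on the pseudocount of 16 added before log2: with 1 or 64, Vanillin minus Sham was 3.65 or 2.44 and Sham minus Mock -3.86 or -2.62.

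Markers of squamous epithelium, the tissue type in which keratinocytes occur, were also far lower in Sham than in the other groups, but unlike Pou2f3 most of them were lower in Vanillin than in Mock as well. All 15 on the list were measured, 14 of them rose in Vanillin minus Sham (median change 4.73) and 15 of 15 fell in Sham minus Mock (median -5.84). In Vanillin minus Mock 0 rose, 12 fell and 3 were not called (median -1.03), where Pou2f3 itself was not called. Some of these probes, among them Krt10 and Lor, which were looked up after their values were seen, reached the top of the intensity range, so both of the larger medians are lower bounds in size. Krt10 and Lor averaged 65464 and 65136 in Vanillin and 65446 and 60972 in Mock. Both were among the 3 not called, where that ceiling could hide a difference. The third, Krt14, also looked up afterwards, read 64969, 63608 and 11506 in Vanillin. The summed intensity of all 15 markers ranged from 293230 to 343906 in Vanillin, from 32409 to 33622 in Sham and from 591494 to 595371 in Mock, and none was at 0 in a group. The cornified-layer keratin Krt1 averaged 24694 in Vanillin, 43.9 in Sham and 50457 in Mock, and Trp63, the master regulator of basal squamous cells, changed by 5.72 in Vanillin minus Sham and by -6.49 in Sham minus Mock. Adipocyte markers (12 of 12 measured) had medians of 3.15 in Vanillin minus Sham and -3.57 in Sham minus Mock, and 8 of 12 fell in Vanillin minus Mock (median -0.35). Skeletal muscle markers (8 of 12 measured) had medians of 3.95 in Vanillin minus Sham and -5.88 in Sham minus Mock, and 8 of 8 fell in Vanillin minus Mock (median -1.68). The part of these tissues in the Pou2f3 values was not tested.

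**Figure D2:**
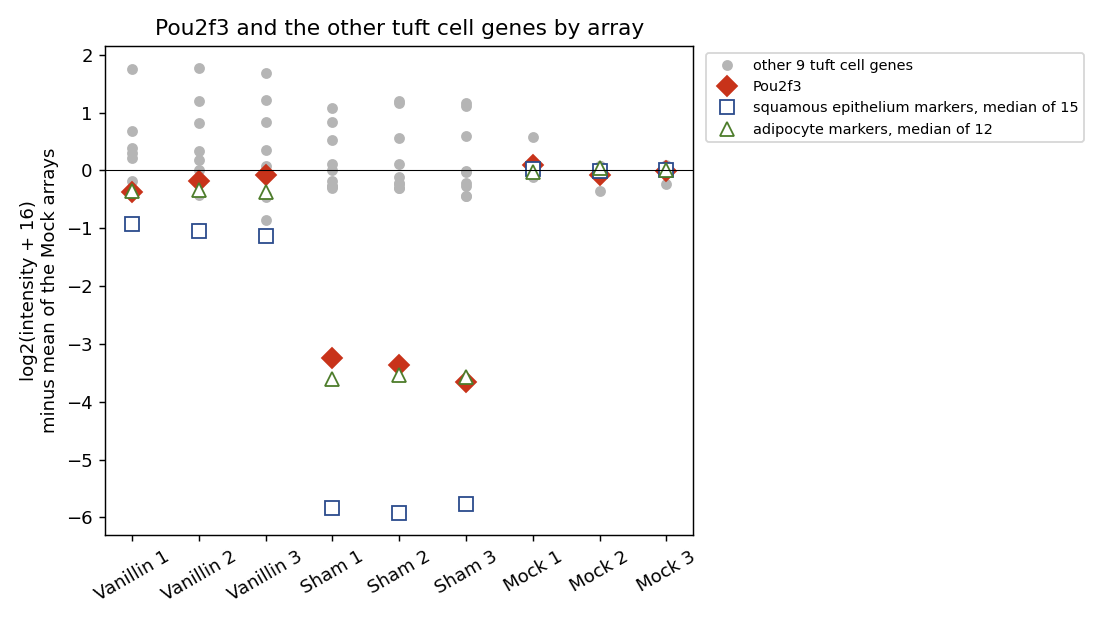
Level on each array as log2(intensity + 16) minus the mean of the Mock arrays, for Pou2f3 (red diamonds), the other 9 tuft cell genes (grey points) and the medians of squamous epithelium and adipocyte markers (open symbols). On the Sham arrays Pou2f3 is at -3.24, -3.37 and -3.66, close to the adipocyte median, above the squamous median and apart from the other 9 genes.

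Both taste-type members were lower in Vanillin than in Sham. Trpm5, the channel that depolarises the cell at the end of the cascade, read 287, 281 and 262 in Vanillin, against 361, 371 and 382 in Sham and 231, 259 and 248 in Mock on its brighter probe. All Sham arrays were above all others, and the Vanillin arrays were all above the Mock arrays by a small margin. Trpm5 fell by 0.40 in Vanillin minus Sham (SE 0.058, limma adjusted p = 0.00046) and rose by 0.56 in Sham minus Mock (SE 0.058, adjusted p = 2.6e-05).

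The rise of Trpm5 in Vanillin minus Mock was 0.16 (SE 0.058, adjusted p = 0.04545) and stood at the threshold. It was lost in 10 alternatives, among them each fit that left out 1 of Mock replicates 1 and 3, Sham replicates 1, 2 and 3, or Vanillin replicates 1 and 2, with adjusted p from 0.0536 to 0.146. Its dim second probe, with means of 21.4 in Vanillin, 34.8 in Sham and 24.2 in Mock, also fell in Vanillin minus Sham (-0.44) and rose in Sham minus Mock (0.33), and was not called in Vanillin minus Mock (-0.10, adjusted p = 0.15).

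Gnat3, the gustducin alpha subunit that couples taste-type receptors to the cascade, read 116, 115 and 114 in Vanillin, against 139, 133 and 130 in Sham and 167, 155 and 156 in Mock. The 3 groups did not overlap, with Vanillin lowest and Mock highest. Its log2 change was -0.20 in Vanillin minus Sham (SE 0.048, limma adjusted p = 0.0078), -0.42 in Vanillin minus Mock (adjusted p = 7.6e-05) and -0.22 in Sham minus Mock (adjusted p = 0.0029). So Trpm5 and Gnat3, which act in 1 cascade, were both lower in Vanillin than in Sham, but differed in sign in Sham minus Mock. Goblet cell markers (10 of 10 measured) had 0 higher and 6 lower in Vanillin minus Sham (median -0.43) and 6 higher and 1 lower in Sham minus Mock (median 0.31). Their summed intensity was 374468 to 383029 in Vanillin, 453037 to 460658 in Sham and 335242 to 353555 in Mock. None was at 0 and some were at the top of the range. The sums had the order that Trpm5 also had, but most single markers did not. In Vanillin minus Mock 3 goblet cell markers were higher and 5 lower (median -0.12), where Trpm5 was higher. Enteroendocrine markers (10 of 11 measured) had 3 higher and 5 lower in Vanillin minus Sham (median -0.14) and 5 higher and 4 lower in Sham minus Mock (median 0.02), with sums of 22622 to 24491 in Vanillin, 23154 to 23768 in Sham and 23957 to 25043 in Mock. The part of these cells in the Trpm5 and Gnat3 values was not tested.

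Other genes of taste-type signalling, like all probes, moved both ways or were not called. The 12 listed genes, all measured, include Trpm5 and Gnat3. In Vanillin minus Sham 2 rose, 4 fell and 6 were not called (median -0.17), where 15.7% of all probes rose and 32.2% fell. In Sham minus Mock 1 rose, 3 fell and 8 were not called (median 0.02), where 36.5% of all probes rose and 23.2% fell. The succinate receptor Sucnr1, through which small-intestinal tuft cells sense microbial succinate, read 172, 154 and 168 in Vanillin, against 61.6, 50.5 and 56.4 in Sham and 226, 228 and 218 in Mock. Its log2 change was 1.33 in Vanillin minus Sham (SE 0.066, limma adjusted p = 5.1e-07) and -1.74 in Sham minus Mock (SE 0.066, adjusted p = 2.6e-08). It also fell in Vanillin minus Mock, by 0.41 (adjusted p = 0.00077), where Pou2f3 was not called. The taste receptor subunit Tas1r3 fell by 0.30 in Vanillin minus Sham, but was dim (means of 30.5 in Vanillin, 41.1 in Sham and 39.9 in Mock). The calcium release channel Itpr3 rose by 0.25 in Vanillin minus Sham. Plcb2, the phospholipase of the cascade, was dim in all groups (means of 27.3 in Vanillin, 34.1 in Sham and 32.2 in Mock) and was not called, and neither was the G protein subunit Gng13 (0.10 and -0.12).

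Both leukotriene members were highest in the Vanillin group. Alox5ap, the membrane protein that presents arachidonic acid to 5-lipoxygenase, read 9220, 9320 and 8814 in Vanillin, against 5769, 6061 and 6140 in Sham and 2590, 2876 and 2679 in Mock. The groups did not overlap, and the order was Vanillin above Sham above Mock. Alox5ap rose by 0.60 in Vanillin minus Sham (SE 0.055, limma adjusted p = 3e-05), by 1.74 in Vanillin minus Mock (adjusted p = 2.1e-08) and by 1.14 in Sham minus Mock (adjusted p = 1.4e-07).

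Alox5, the 5-lipoxygenase itself, read 1314, 1454 and 1464 in Vanillin, against 652, 654 and 591 in Sham and 821, 795 and 809 in Mock. Here too the groups did not overlap, but Sham was lowest. Alox5 rose by 1.14 in Vanillin minus Sham (SE 0.061, limma adjusted p = 8.9e-07) and by 0.79 in Vanillin minus Mock (adjusted p = 6.6e-06), and it fell by 0.35 in Sham minus Mock (adjusted p = 0.00095). The enzyme and its helper were thus both higher with vanillin, and had opposite signs in Sham minus Mock.

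Most leukocyte markers rose in Vanillin minus Sham, as these 2 genes did. Most also rose in Sham minus Mock, as Alox5ap did, whereas Alox5 fell there. Without Alox5 and Hpgds, which the mast cell list also names, 10 of 12 mast cell markers were measured, and 10 of 10 rose in Vanillin minus Sham (median 0.71), while 9 rose and 1 fell in both Vanillin minus Mock (median 1.97) and Sham minus Mock (median 1.14). The 1 that fell in each was Gata2, named after its values were seen. Their summed intensity ranged from 74087 to 75975 in Vanillin, from 45057 to 47999 in Sham and from 10188 to 10615 in Mock, with none at 0, an order that Alox5ap shared and Alox5 did not. Of 13 macrophage and monocyte markers measured of 14, 8 rose and 1 fell in Vanillin minus Sham (median 0.25), and in Sham minus Mock 7 rose and 2 fell (median 0.61). Of 14 neutrophil markers 11 rose and 0 fell in Vanillin minus Sham (median 0.67), and 10 rose and 4 fell in Sham minus Mock (median 1.64). The summed macrophage and monocyte level was 114071 to 119188 in Vanillin, 93613 to 98719 in Sham and 43311 to 44320 in Mock, and that of neutrophil markers 138231 to 146551 in Vanillin, 77289 to 79254 in Sham and 71610 to 76701 in Mock, with none of either list at 0. The Mock sum of the neutrophil list is carried by Ltf, named after its values were seen, which averaged 9975 in Vanillin, 6496 in Sham and 41218 in Mock. The part of these cells in the Alox5 and Alox5ap values was not tested.

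**Figure D3:**
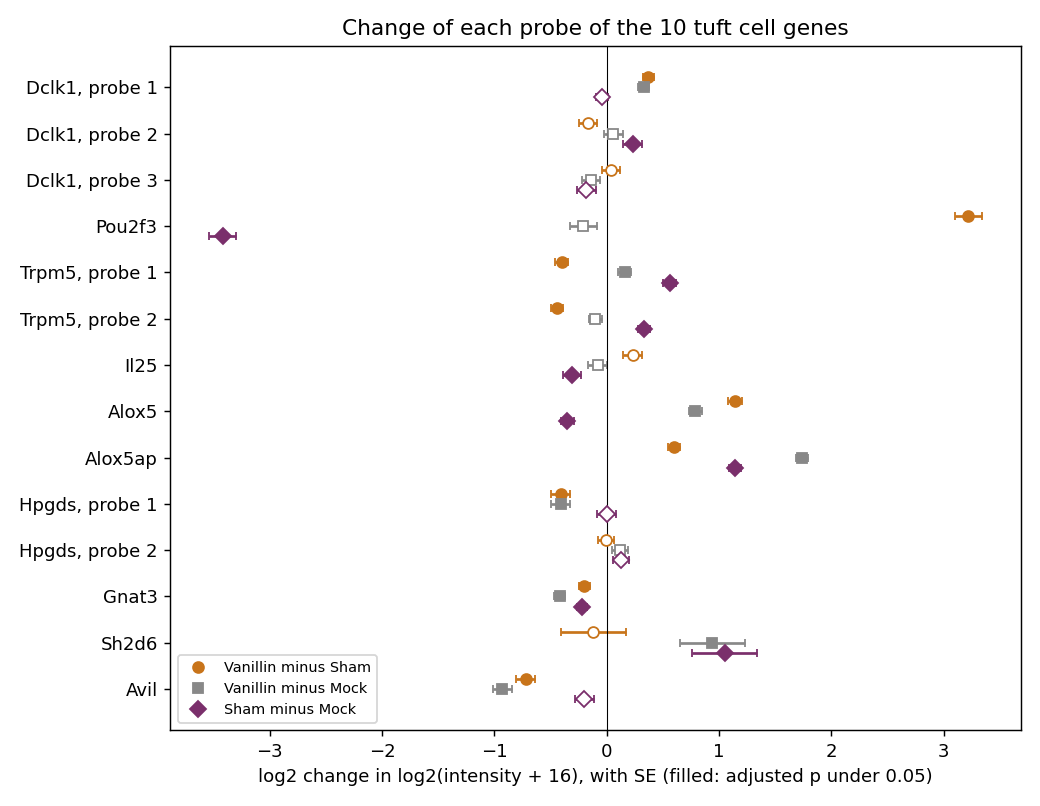
Log2 change (x axis, in log2(intensity + 16), with SE) of each of the 14 probes in Vanillin minus Sham (circles), Vanillin minus Mock (squares) and Sham minus Mock (diamonds), with probe 1 of a gene its brightest and filled symbols at an adjusted p under 0.05. Pou2f3 has the widest spread, from -3.42 to 3.22, and the probes of Dclk1 and Hpgds differ among themselves.

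Hpgds, the prostaglandin D2 synthase of tuft and mast cells, was lower with vanillin on 1 of its 2 probes. The brighter probe read 462, 450 and 437 in Vanillin, against 650, 651 and 518 in Sham and 588, 629 and 594 in Mock. All Vanillin arrays were below all others, while Sham and Mock overlapped. It fell by 0.41 in Vanillin minus Sham (SE 0.086, limma adjusted p = 0.004) and by 0.41 in Vanillin minus Mock (adjusted p = 0.0034). The second probe had means of 349 in Vanillin, 352 in Sham and 320 in Mock and was called in none of the 3 comparisons (-0.01, 0.12 and 0.13, with SE 0.071), so the 2 probes disagree.

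Among 16 measured genes of 18 listed for leukotriene and prostaglandin D2 handling, which include Alox5, Alox5ap and Hpgds, 9 rose, 4 fell and 3 were not called in Vanillin minus Sham (median 0.38), and 6 rose, 7 fell and 3 were not called in Sham minus Mock (median -0.09). The leukotriene C4 synthase Ltc4s, which acts after Alox5, read 2155, 2159 and 2145 in Vanillin, against 802, 802 and 898 in Sham and 2029, 2097 and 2148 in Mock. Its log2 change was 1.35 in Vanillin minus Sham (SE 0.056, limma adjusted p = 1.2e-07), -1.31 in Sham minus Mock (adjusted p = 5.4e-08) and 0.04 in Vanillin minus Mock (adjusted p = 0.56).

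The cyclooxygenases, which supply the substrate of Hpgds, had different orders. Ptgs1, the constitutive form that tuft cells carry, read 4705, 4824 and 4737 in Vanillin, against 1711, 1700 and 1591 in Sham and 5557, 5088 and 4898 in Mock, and rose by 1.50 in Vanillin minus Sham (SE 0.058, limma adjusted p = 7.9e-08). Ptgs2, the inducible form, rose in each comparison, by 0.90 in Vanillin minus Sham, 4.08 in Vanillin minus Mock and 3.19 in Sham minus Mock. Ptgs1 and Ltc4s therefore were lowest in Sham, as were Pou2f3, Sucnr1 and the summed level of squamous epithelium markers, and Ptgs2 was highest in Vanillin, as were Alox5ap and the summed level of mast cell markers.

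The leukotriene B4 receptor Ltb4r1 rose by 0.93 in Vanillin minus Sham and fell by 1.94 in Sham minus Mock. Alox12, the platelet-type lipoxygenase, fell by 0.66 in Vanillin minus Sham and rose by 1.22 in Sham minus Mock. The prostaglandin D2 receptor Ptgdr2 of type 2 immune cells was not called in any comparison (-0.15, 0.15 and 0.30 in Vanillin minus Sham, Vanillin minus Mock and Sham minus Mock).

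**Figure D4:**
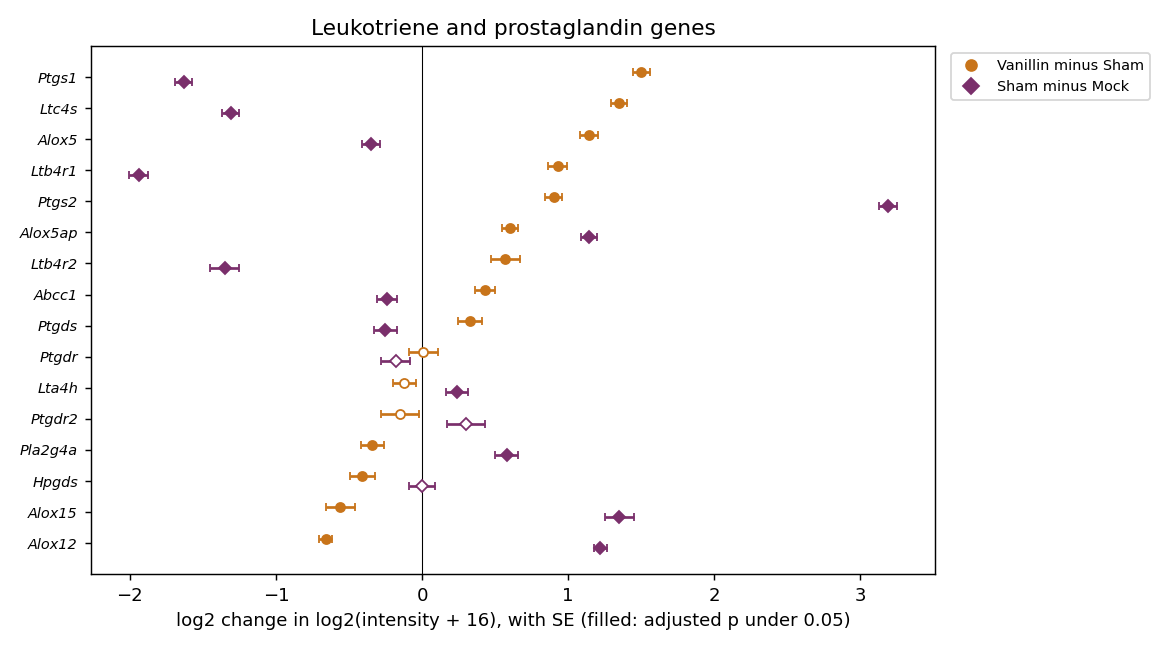
Log2 change (x axis, in log2(intensity + 16), with SE) of 16 leukotriene and prostaglandin genes in Vanillin minus Sham (circles) and Sham minus Mock (diamonds), sorted by the first, filled at an adjusted p under 0.05. Ptgs1, Ltc4s and Alox5 lead at 1.50, 1.35 and 1.14 in Vanillin minus Sham, and each was negative in Sham minus Mock.

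Il25, the cytokine that tuft cells release to activate group 2 innate lymphoid cells, was dim on every array. It read 32.7, 39.4 and 36.3 in Vanillin, against 30.1, 31.2 and 24.4 in Sham and 34.6, 42.3 and 40.6 in Mock. Sham lay below the other groups with no overlap, and Vanillin and Mock overlapped. Il25 fell by 0.31 in Sham minus Mock (SE 0.083, limma adjusted p = 0.011), and in Vanillin minus Sham it had 0.23 (SE 0.083, adjusted p = 0.05001), just outside the threshold. A pseudocount of 1 or 64 gave -0.44 or -0.16 in Sham minus Mock. About 20% of probes on each array read below 50, as Il25 did throughout, and no detection flag is given with the values.

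The type 2 circuit downstream of Il25 moved both ways. Of 24 listed genes 20 were measured, Il25 among them. In Vanillin minus Sham 8 rose, 2 fell and 10 were not called (median 0.16), where 15.7% of all probes rose and 32.2% fell. In Sham minus Mock 6 rose, 7 fell and 7 were not called (median 0.03), where 36.5% of all probes rose and 23.2% fell. Il17rb, which codes for the Il25 receptor chain and is also made by tuft cells, read 254, 259 and 237 in Vanillin, against 294, 306 and 288 in Sham and 475, 446 and 442 in Mock. It was lowest in Vanillin with no overlap between groups, and fell by 0.23 in Vanillin minus Sham (limma adjusted p = 0.0065), 0.82 in Vanillin minus Mock (adjusted p = 2e-06) and 0.59 in Sham minus Mock (adjusted p = 1.1e-05).

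Il13, the type 2 cytokine that expands tuft cells, fell by 0.47 in Vanillin minus Sham (SE 0.16, limma adjusted p = 0.041). It had 0.29 in Sham minus Mock (adjusted p = 0.15). Its Vanillin arrays spread widely, at 117, 61.6 and 86.6, against 122, 119 and 134 in Sham, so replicate 1 of Vanillin lay close to Sham. The alarmin Il33 was not called in any comparison (-0.15, -0.37 and -0.22 in Vanillin minus Sham, Vanillin minus Mock and Sham minus Mock). Gata3, a regulator of type 2 lymphocytes that keratinocytes also use, changed by 3.05 in Vanillin minus Sham and by -3.37 in Sham minus Mock, close to the values of Pou2f3. In Vanillin minus Mock Gata3 changed by -0.31 and was called (limma adjusted p = 0.00065), where Pou2f3 was not called. Arg1 changed by 0.72 in Vanillin minus Sham and by -1.39 in Sham minus Mock. The eosinophil chemokines Ccl24 and Ccl11 rose by 0.84 and 0.64 in Vanillin minus Sham. Retnlb, a goblet cell product of type 2 responses, stood at the top of the intensity range on all Vanillin and Sham arrays (means of 65508 in Vanillin and 65509 in Sham, against 45824 in Mock), so its rise of 0.53 over Mock in each is limited by that ceiling.

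Dclk1, the usual tuft cell marker in mouse intestine, gave no single answer. The brightest of its 3 probes read 999, 1007 and 1035 in Vanillin, against 804, 737 and 796 in Sham and 826, 803 and 773 in Mock. All Vanillin arrays were above the rest, and Sham and Mock overlapped. This probe rose by 0.37 in Vanillin minus Sham (SE 0.051, limma adjusted p = 0.00036) and by 0.33 in Vanillin minus Mock (adjusted p = 0.00055), with -0.04 in Sham minus Mock (adjusted p = 0.53).

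The second Dclk1 probe averaged 306 ± 26.1 in Vanillin, 346 ± 10.2 in Sham and 294 ± 28.5 in Mock (SD, n = 3 each). It had -0.17 in Vanillin minus Sham (adjusted p = 0.12) and rose by 0.23 in Sham minus Mock (limma adjusted p = 0.037), a call that was lost in 7 alternatives, among them the fits without Mock replicate 1 or 3, Sham replicate 1, 2 or 3, or Vanillin replicate 2 (adjusted p from 0.0517 to 0.119). The third probe, with means of 165 in Vanillin, 161 in Sham and 183 in Mock, was called in none. The probes may read different transcripts of Dclk1, which the files do not tell. Neurons also make Dclk1. Of 11 neuron and glia markers measured of 16, 2 rose and 4 fell in Vanillin minus Sham (median -0.22). Of all probes, 15.7% rose and 32.2% fell there. In Vanillin minus Mock 1 rose and 6 fell (median -0.27), where 24.5% of all probes rose and 26.2% fell. The part of neurons in the Dclk1 values was not tested.

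Avil, the actin-bundling protein of the tuft cell's apical brush, was lowest with vanillin. It read 1678, 1609 and 1783 in Vanillin, against 2686, 2590 and 3162 in Sham and 3240, 3015 and 3430 in Mock. Vanillin lay below both other groups with no overlap, while Sham and Mock overlapped through Sham replicate 3. Avil fell by 0.72 in Vanillin minus Sham (SE 0.085, limma adjusted p = 0.00014) and by 0.93 in Vanillin minus Mock (adjusted p = 2e-05). Sham minus Mock gave -0.20 (adjusted p = 0.069), and without Sham replicate 3 it gave -0.29 and was called (adjusted p = 0.00988). Neuron and glia markers summed to 4624 to 4927 in Vanillin, 6150 to 6201 in Sham and 6889 to 7510 in Mock, with none at 0. By count, 1 rose and 6 fell in Vanillin minus Mock (median -0.27). In Sham minus Mock 3 rose and 4 fell (median 0.05), so the list as a whole did not fall there. The part of neurons and glia in the Avil values was not tested.

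Sh2d6 was higher in both AOM/DSS groups than in Mock, with wide spread. It read 543, 968 and 982 in Vanillin, against 747, 969 and 912 in Sham and 625, 319 and 348 in Mock. Vanillin replicate 1 lay below the other Vanillin arrays and Mock replicate 1 above the other Mock arrays, so that Vanillin and Mock overlapped. Sh2d6 rose by 1.05 in Sham minus Mock (SE 0.29, limma adjusted p = 0.011), a call kept in each alternative, with 1.34 without Mock replicate 1. It rose by 0.94 in Vanillin minus Mock (SE 0.29, adjusted p = 0.023), and this call was lost without Mock replicate 2 or 3 or Vanillin replicate 2 or 3, with only the 6 arrays compared and with the replicate number as a block (adjusted p from 0.0503 to 0.083). Vanillin minus Sham gave -0.12 (adjusted p = 0.77).

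Other genes named for tuft cells were likewise divided, as all probes were. Of 45 listed genes 42 were measured. In Vanillin minus Sham 12 rose, 12 fell and 18 were not called (median -0.06), where 15.7% of all probes rose and 32.2% fell. In Vanillin minus Mock 15 rose, 10 fell and 17 were not called (median 0.09), where 24.5% of all probes rose and 26.2% fell. In Sham minus Mock 15 rose, 11 fell and 16 were not called (median 0.13), where 36.5% of all probes rose and 23.2% fell. After Ptgs1, Ltc4s and Sucnr1, the smallest p in Vanillin minus Sham was that of Kctd12 (0.86, SE 0.063, limma adjusted p = 7.3e-06). In Sham minus Mock the adaptor Skap2 rose by 1.92, the exchange factor Vav1 by 1.42 and the GTPase Rac2 by 1.57, and all 3 are also leukocyte genes. A second probe of Rac2 fell by 0.17 there (adjusted p = 0.042), so its probes disagree.

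The regulator of G protein signalling Rgs13, which mast cells and germinal centre B cells also make, averaged 102 in Vanillin, 90.6 in Sham and 26.5 in Mock and rose by 1.48 in Vanillin minus Mock (SE 0.05, limma adjusted p = 3.1e-08). Gfi1b, a transcription factor of tuft cells, was not called in any comparison, at 0.01, 0.05 and 0.04 on the log2 scale in Vanillin minus Sham, Vanillin minus Mock and Sham minus Mock. Chat, which makes the acetylcholine of tuft cells, was dim (means of 23.2 in Vanillin, 24.4 in Sham and 18.9 in Mock) and rose by 0.22 in Sham minus Mock (adjusted p = 0.03). General epithelial markers (13 of 13 measured, of which Krt8 was at or below 0 in Vanillin and Sham) had 1 higher and 5 lower in Vanillin minus Sham (median -0.07) and 8 higher and 1 lower in Sham minus Mock (median 0.28).

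**Figure D5:**
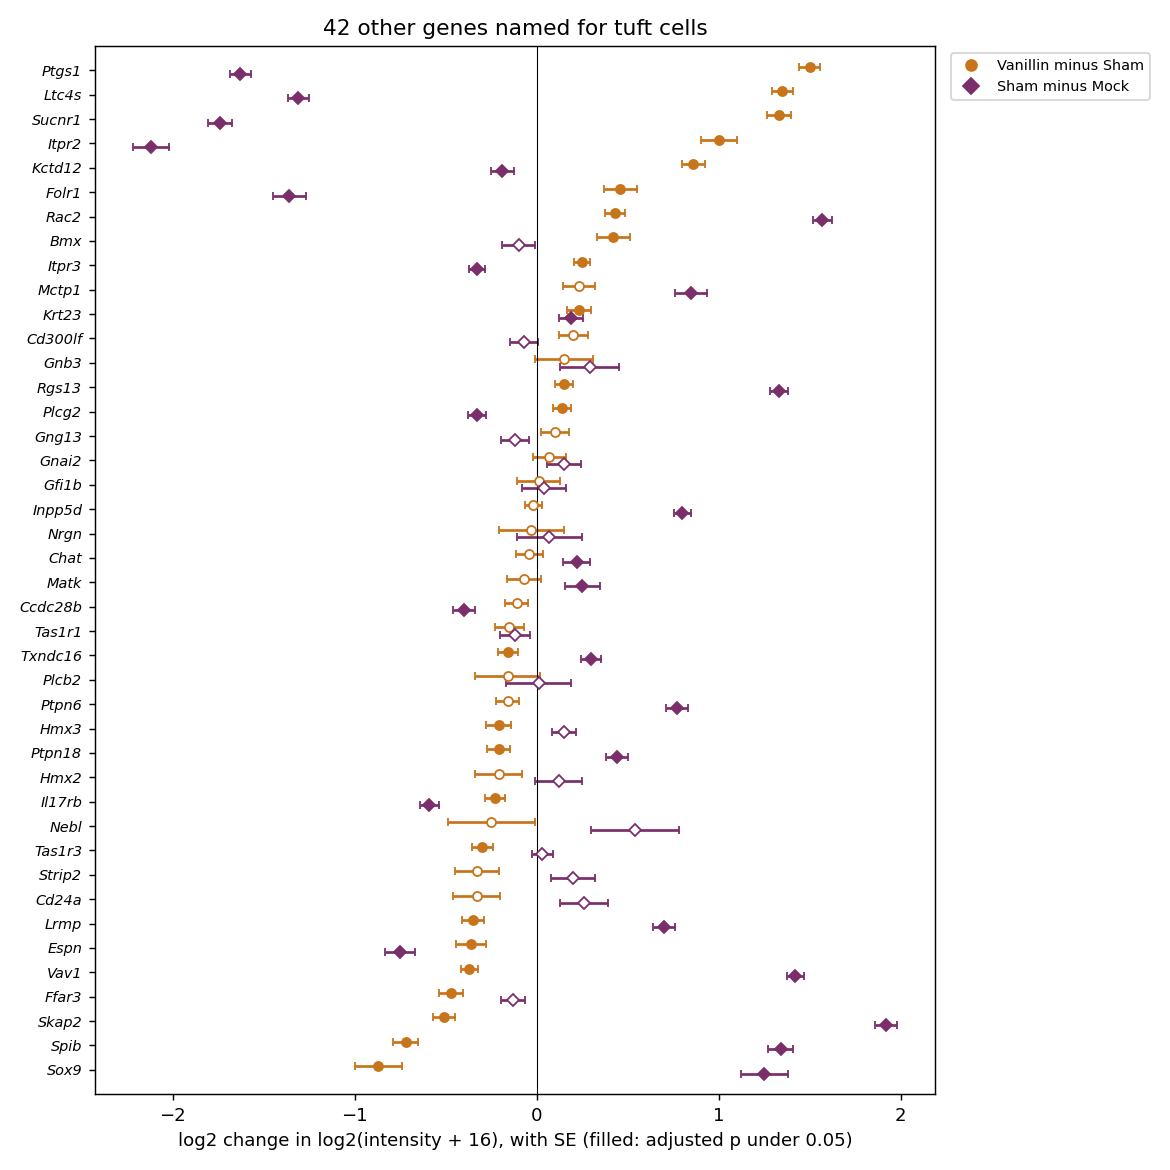
Log2 change (x axis, in log2(intensity + 16), with SE) of 42 other genes named for tuft cells in Vanillin minus Sham (circles) and Sham minus Mock (diamonds), sorted by the first and filled at an adjusted p under 0.05. Ptgs1, Ltc4s and Sucnr1 are at the top, and the changes lie on both sides of 0.

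The genes with the most similar patterns over the 9 arrays differed between members, as Pearson's r of log2 values across arrays that share 3 groups. For Pou2f3 they were Sgpp1, Itm2a and Acox2 (r of 0.999, 0.999 and 0.998), and for Alox5ap Gulo, F630028O10Rik and Plek (0.999, 0.998 and 0.997). For Trpm5 they were Eif4e2, C2cd3 and Grcc10 (0.994, 0.992 and 0.992), for Alox5 Secisbp2l, Il1bos and F3 (0.987, 0.987 and 0.986), and for Gnat3 Kdf1, 0610009L18Rik and Lrrc42 (0.994, 0.990 and 0.990). For Avil they were Hgfac, Cradd and Htr4 (0.992, 0.990 and 0.990), for Hpgds Phlpp1, Ncs1 and Sowaha (0.981, 0.980 and 0.978) and for Dclk1 Btc, Dcn and Zfp101 (0.981, 0.981 and 0.978). For Sh2d6 they were Olfr745, Vmn1r232 and Nkapd1 (0.991, 0.991 and 0.986), the first 2 of which are an olfactory and a vomeronasal receptor gene. These are the highest values among 20377 named probes and are given as a description.

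All 9 arrays had a median intensity between 319.6 and 320.1. Within a group the arrays correlated at 0.995 to 0.998 over all probes, and between groups at 0.926 to 0.929 for Sham with Mock, 0.964 to 0.967 for Vanillin with Sham and 0.969 to 0.973 for Vanillin with Mock.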

How the data were processed

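Colon RNA was amplified and labelled with Cy5, per the labels' protocols. The deposited values are probe intensity on a linear scale; limma is named in the submitters' processing notes, with neither role nor version. Between 3 and 14 deposited values per array lie below 0 and the sorted values of all arrays nearly coincide; how the authors corrected and normalized them, the scanner and any filter on probes are not stated in those notes or labels.

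Negative values were set to 0 and log2(value + 16) was taken. Group means of all 9 arrays were modelled over 26423 probes in limma 3.58.1 in R 4.3.3 (lmFit, eBayes without trend, two-sided), with 6 residual and 2.69 prior degrees of freedom. It was tested on simulated data. Changes are on the log2(value + 16) scale, which understates those of dim probes. Precision is limited by the number of arrays, 3 per group.

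Of the probes, 20377 had 1 symbol in the platform's annotation, 0 had several and 6046 had none. Older symbols were updated where only 1 gene was possible (2126 probes), which added no probe to the members. All members are named whatever their values, with fixed genes and up to 4 of smallest p from each other list. Members and lists were chosen with earlier results of these data known, and the lists overlap. The 13 motifs were searched together; the capitals mark only the octamer and its core.

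Same-numbered Sham and Vanillin arrays deviated together from their group means (r of 0.169, 0.126 and 0.201). Differently numbered ones had r from -0.203 to 0.00172. Same-numbered Mock arrays did not deviate together with the others, with r from -0.117 to -0.0162 against Sham and from -0.288 to -0.103 against Vanillin. Some differently numbered arrays were as close, such as Mock 1 with Vanillin 3 (r of 0.215), so these r do not establish pairing. The main fit used none. Alternatives covered pseudocount, dim probes, normalization, prior, arrays used, array weights, replicate number as a block and each array left out. Plots used matplotlib 3.10.9 (Python 3.11.15).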

Additional observations from a re-analysis of the deposited data

How the results depend on the processing

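The number of tuft cell genes called was 8 of 10 in Vanillin minus Sham (8 to 9 over all alternatives run), 8 in Vanillin minus Mock (6 to 8, and 6 to 7 with each array left out) and 7 in Sham minus Mock (6 to 9). Over all probes, calls ranged from 10802 to 14080 around 12659 in Vanillin minus Sham, from 11405 to 17660 around 13404 in Vanillin minus Mock and from 13191 to 17268 around 15787 in Sham minus Mock. With the replicate block on all 9 arrays, 9, 6 and 8 tuft cell genes and 12269, 13021 and 15498 probes were called in these comparisons. A replicate block on the 6 arrays of Vanillin and Sham alone was added after the correlations of same-numbered arrays were seen. With it, 8 tuft cell genes and 11587 probes were called, and no member changed its call. Of 764 values of the 14 probes over all alternatives, 712 kept direction and side of the threshold, 23 lost a call, 17 gained 1 and 12 changed sign, and the 12 were all of probes that were not called.

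The sign changes were those of Sh2d6 in Vanillin minus Sham (0.07 with array weights, and -0.26 to 0.16 with each array left out), of the second Hpgds probe in Vanillin minus Sham (-0.08 to 0.03), of the third Dclk1 probe in Vanillin minus Sham (-0.06 to 0.11), of the second Dclk1 probe in Vanillin minus Mock (-0.02 to 0.12) and of the brighter Hpgds probe in Sham minus Mock (0.00 with a pseudocount of 64, 0.01 with array weights, and -0.05 to 0.11 with each array left out). The cause was not tested. Il25 in Vanillin minus Sham was called in 7 alternatives, with a change of 0.23 to 0.33. Dim signal limits Il25, the second Trpm5 probe, Plcb2, Tas1r3, Chat and Pou2f3 in Sham.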
